A study of Mus musculus with 64 samples.

Results

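The immediate early genes described here are 10 genes: Fos, Fosb, Jun, Junb, Egr1, Egr2, Ier2, Nr4a1, Atf3 and Btg2. They were taken by gene symbol from a deposited expression table of 36332 distinct gene IDs, and each of the 10 had an ID in the table. The table holds 64 RNA sequencing libraries in 12 groups, made by 3 tissues (omental adipose tissue, liver and skeletal muscle), 2 ages (5 and 20 months) and 2 genotypes. The KO mice came from a cross of 2 lines labelled with B6.129 backgrounds. One parent line, Gt(ROSA)26Sortm1(cre/ERT2)Tyj/J, expresses a tamoxifen-activated Cre from the Rosa26 locus in the whole body, and the other, B6.129S6-Myctm2Fwa/Mmjax, carries the Myc allele that this Cre excises. The WT mice are labelled C57/B6, so that genotype and strain background cannot be told apart. All groups, WT included, are labelled as having had 5 injections of tamoxifen at 75 mg/kg in corn oil from weaning, once a mouse weighed at least 15 g. Adipose tissue and liver had 6 libraries per genotype at 5 months and 5 at 20 months. Muscle had 6 WT and 4 KO libraries at 5 months and 5 of each genotype at 20 months. Libraries are named here by the codes of the labels, where K or W gives the genotype, 5 or 18 stands for the younger or older age, F, L or S gives adipose tissue, liver or muscle, and the last number is taken to name the animal. The labels do not say how the animals were killed or how fast the tissues were taken, and do not say whether a library pools animals, so the p-values measure only the spread between these libraries.

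Immediate early genes are transcribed within minutes of a stimulus such as a growth factor, calcium entry, stretch or injury, from transcription factors that are already present in the cell (SRF with its ternary complex partners at CArG boxes, and CREB at cyclic AMP response elements). Fos and Fosb pair with Jun or Junb to form the AP-1 transcription factor. Egr1 and Egr2 are zinc finger transcription factors, Nr4a1 is an orphan nuclear receptor, Atf3 is a stress-induced factor of the ATF/CREB family, Ier2 is a small nuclear protein, and Btg2 is an antiproliferative gene induced by p53. Their messages are short-lived, and in muscle and liver they are known to respond to exercise, to injury and to the handling of the tissue. Myc, the inactivated gene, is itself classed as an immediate early gene.

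The promoters are shown to give which elements of these classical response pathways they hold. RefSeq promoter windows of 300 bases (250 before and 50 after a start site, build GRCm38.p6) were at hand for 8 members, not for Egr1 and Ier2. Both strands were searched for the CArG box, for the cyclic AMP response element TGACGTCA, for its half-site TGACG (which lies inside the full element and was counted there too) and for the AP-1 site TGANTCA. The half-site was found in 7 of the 8 genes (all but Jun). By window it was in 9 of the members' 12, and in 20.8% of 32851 promoter windows of all genes. The full element was found in 1 member, Btg2 (1 of the 12 windows), and in 1.79% of all windows. A CArG box was found in 1 member, Egr2 (4 of the 12 windows, from neighbouring start sites), and in 1.63% of all windows. No member's window held the AP-1 site, which 7.81% of all windows held. These matches describe letters, not bound sites, and no binding data were used. Sequence more than 250 bases before a start site was not searched. A window without a match therefore does not show that the gene lacks the element. The windows below belong to Fos, and to 4 genes that changed with age in a test further on: Junb, Egr2, Atf3 and Btg2. Their positions are chr12:85473640-85473939, plus strand (Fos), chr8:84978699-84978998, minus strand (Junb), chr10:67537619-67537918, plus strand (Egr2, 1 of 5 listed start sites), chr1:191183284-191183583, minus strand (Atf3) and chr1:134079106-134079405, minus strand (Btg2). Each is written 5′ to 3′ on the gene's strand, and capitals mark the half-site, the full element or the CArG box on either strand.
Fos: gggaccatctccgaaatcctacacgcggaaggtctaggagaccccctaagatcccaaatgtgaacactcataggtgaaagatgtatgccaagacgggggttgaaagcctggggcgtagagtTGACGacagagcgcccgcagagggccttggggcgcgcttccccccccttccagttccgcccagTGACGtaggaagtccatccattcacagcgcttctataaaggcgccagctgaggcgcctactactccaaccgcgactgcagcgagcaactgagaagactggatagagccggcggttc
Junb: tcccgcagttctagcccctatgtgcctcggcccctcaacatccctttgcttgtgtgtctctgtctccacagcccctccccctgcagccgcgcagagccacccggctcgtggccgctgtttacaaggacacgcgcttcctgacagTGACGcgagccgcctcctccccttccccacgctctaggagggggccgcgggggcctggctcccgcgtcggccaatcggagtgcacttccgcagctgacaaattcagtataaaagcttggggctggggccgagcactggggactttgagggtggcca
Egr2: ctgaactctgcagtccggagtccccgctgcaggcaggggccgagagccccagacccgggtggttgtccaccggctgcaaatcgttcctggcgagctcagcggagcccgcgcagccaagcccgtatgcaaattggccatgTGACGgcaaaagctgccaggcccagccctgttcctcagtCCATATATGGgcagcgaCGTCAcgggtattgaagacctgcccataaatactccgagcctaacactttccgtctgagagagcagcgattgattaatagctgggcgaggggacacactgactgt
Atf3: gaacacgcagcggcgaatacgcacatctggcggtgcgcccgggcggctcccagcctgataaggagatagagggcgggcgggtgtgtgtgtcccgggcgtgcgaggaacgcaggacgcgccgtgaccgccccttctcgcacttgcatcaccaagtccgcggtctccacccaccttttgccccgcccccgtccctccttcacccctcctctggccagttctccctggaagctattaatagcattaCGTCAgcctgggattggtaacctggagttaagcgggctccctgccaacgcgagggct
Btg2: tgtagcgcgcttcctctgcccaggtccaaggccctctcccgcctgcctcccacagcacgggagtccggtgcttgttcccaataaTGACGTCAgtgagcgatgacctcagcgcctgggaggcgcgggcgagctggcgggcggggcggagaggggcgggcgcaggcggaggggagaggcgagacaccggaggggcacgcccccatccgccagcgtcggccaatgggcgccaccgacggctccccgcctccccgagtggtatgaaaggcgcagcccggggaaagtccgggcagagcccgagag

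Sequencing gave 15.4 to 28.5 M (mega) reads on genes per library (median 19.6 M), and the tissues' own markers were high in their tissue. Levels are given as CPM, the authors' scaled signal. Myc was lower in the KO libraries at 5 months in adipose tissue (log2 fold change -1.52, limma adjusted p = 0.017) and liver (-2.38, adjusted p = 0.00093), while the muscle value of -1.13 had an adjusted p of 0.9999. At 20 months Myc was not called by limma in adipose tissue (-0.63), liver (-1.16, adjusted p = 0.547) or muscle (-0.49, adjusted p = 0.663). In 12 libraries, 2 in each of the 6 young groups, the female-specific transcript Xist was present, and no 20-month library had it. Epididymis transcripts were present in 4 adipose libraries of young mice, 3 of them KO, and in 1 young WT muscle library, W5S5299 (marker sum 126 CPM). Several results that rest on these libraries are given with and without them, while the spread within groups is given with all libraries. W5S5299 was left out only on its own. Markers of other tissues were present in some libraries too. Summed hepatocyte markers reached 3030 CPM in old WT muscle (median of muscle libraries 1.387) and 793 CPM in old KO adipose tissue (adipose median 20.58). Summed skeletal muscle markers reached 950.7 CPM in young WT adipose tissue (adipose median 227.8). Their part in the members' values was not tested.

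Fos had its highest group means in muscle at 5 months (116.5 and 125.1 CPM) and its 4 lowest in liver (2.27 to 3.84 CPM). The adipose groups had means from 12.4 to 46.5 CPM, and old muscle had 36.7 CPM in WT and 20.1 CPM in KO mice. In young WT muscle the 2 libraries with Xist had 208.3 and 390.2 CPM of Fos, and the others 7.595 to 41.92 CPM. By medians, young WT muscle had 38.28 CPM and the adipose groups 10.31 to 34.6 CPM. Old muscle had medians of 10.2 CPM in WT and 9.02 CPM in KO mice, below each adipose group. Fosb had a mean of 7.004 CPM in young WT, 3.74 CPM in young KO, 0.898 CPM in old WT and 0.368 CPM in old KO muscle. The young WT muscle libraries ran from 0.678 to 27.24 CPM of Fosb. Their median of 1.369 CPM was below those of the adipose groups (1.725 to 2.725 CPM). The means of Fosb were 2.28 to 3.79 CPM in the adipose groups and 0.275 to 0.540 CPM in the liver groups, so that old KO muscle lay among the liver groups. Fosb and Egr2 failed the minimum of 1 CPM in liver, so 10 members were tested in adipose tissue and muscle and 8 in liver.

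Jun, the usual partner of Fos, had muscle group means of 189 to 273 CPM and means of 43.2 to 70.0 CPM in the other tissues. Each muscle library (125 CPM or more) was above each adipose and liver library (114 CPM or less). Junb, a Jun relative that can oppose Jun, ran from 93.8 CPM in young WT muscle down to 23.8 CPM in old WT muscle, the highest and the lowest of its 12 group means, with old WT liver (54.6 CPM) at the second place. Its median in young WT muscle (50.78 CPM) was below those of young KO muscle (57.51 CPM) and old WT liver (51.18 CPM). Nr4a1 had means of 119.7 to 228.5 CPM in muscle, 9.25 to 42.5 CPM in adipose tissue and 2.49 to 11.7 CPM in liver. By means, Atf3 ranked its 4 muscle groups first, from 85.9 to 458 CPM, then adipose tissue (14.1 to 53.9 CPM), then liver (2.35 to 4.72 CPM). By medians it did not: old WT muscle had 6.70 CPM, below each adipose group (10.22 to 55.27 CPM). Btg2 likewise had its 4 highest means in muscle (69.5 to 391 CPM). Its median in old WT muscle (31.16 CPM) was below those of the adipose groups (39.78 to 53.15 CPM).

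Ier2 and Egr2 had their highest means outside muscle. Ier2 was highest in liver, with group means from 31.6 to 44.6 CPM against 7.87 to 22.6 CPM in muscle. Egr2 was highest in adipose tissue, at 3.71 CPM in young WT and 16.4 CPM in old KO mice, against 1.24 to 3.14 CPM in muscle. Egr1 had its highest means in young muscle (227 CPM in WT and 97.8 CPM in KO), then in old WT liver (58.15 CPM), while old muscle had 22.9 CPM in WT and 14.95 CPM in KO mice. Its median in young WT muscle was 20.89 CPM, below those of young (33.75 CPM) and old (66.19 CPM) WT liver. Groups that followed each other in a member's order of means overlapped in their ranges at 10 or 11 of 11 steps in each member, so most neighbours in the order were not set apart.

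**Figure D1:**
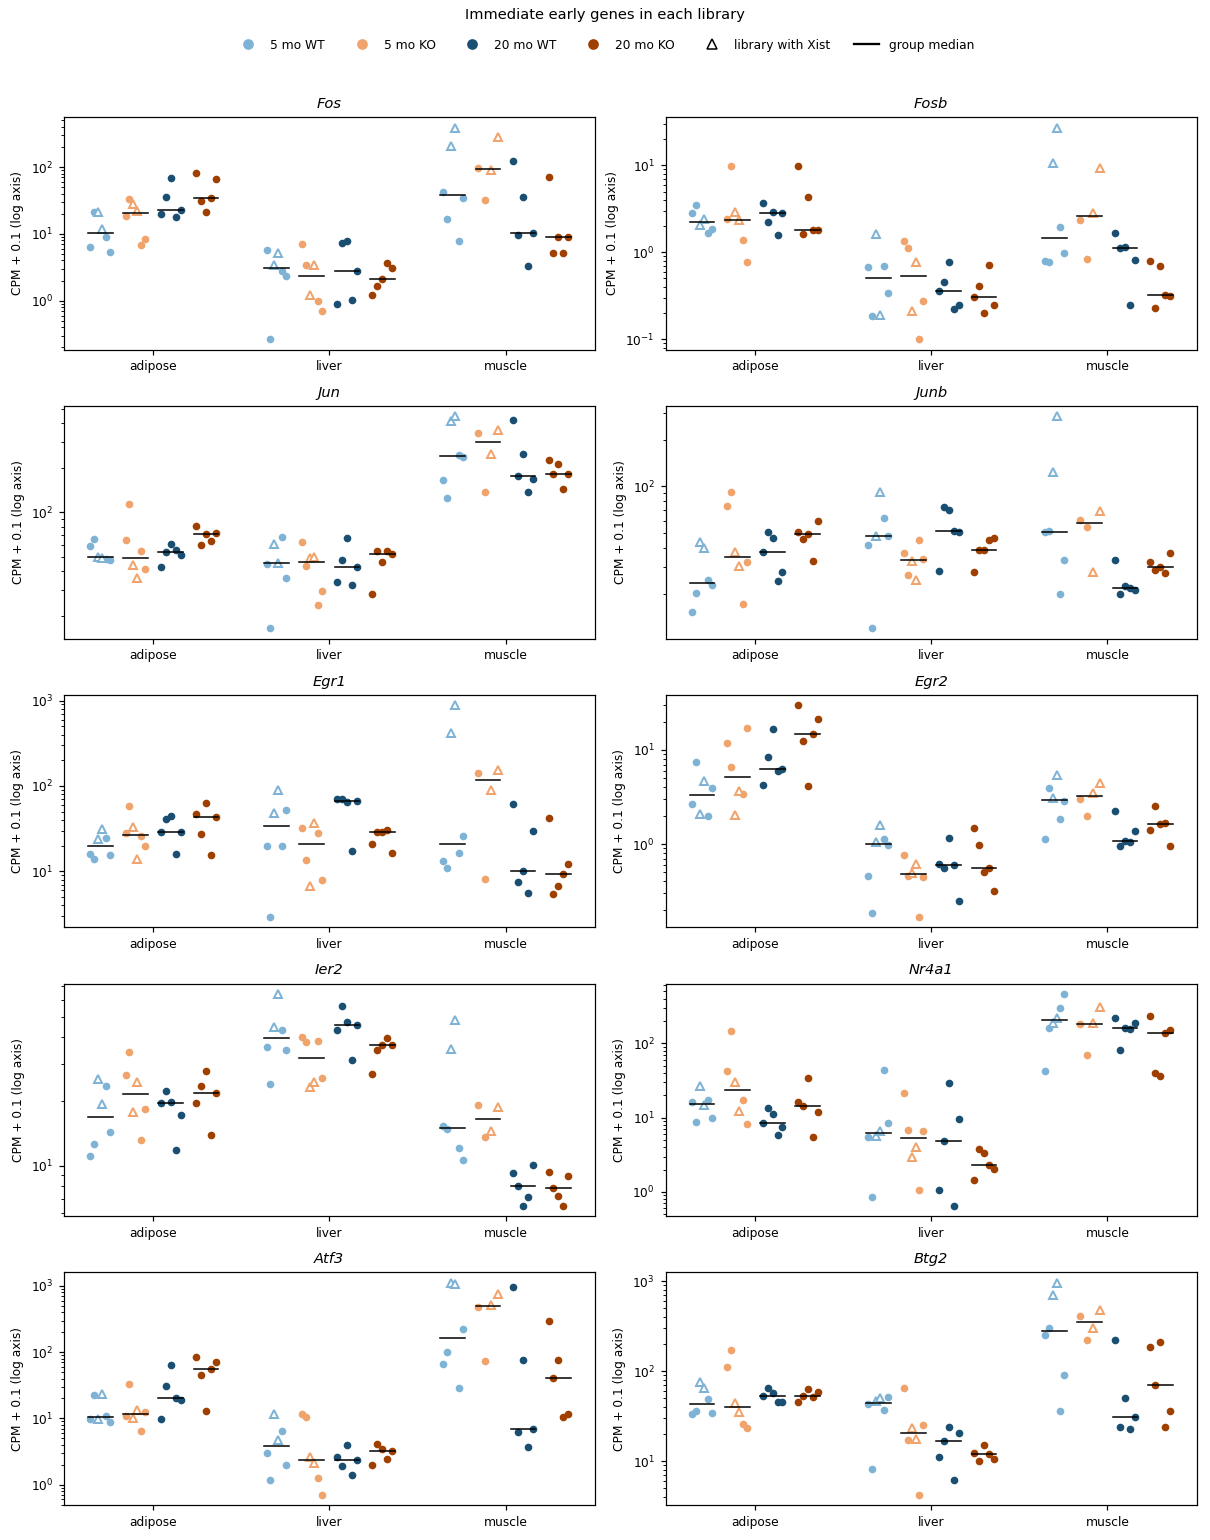
Level of each member in each of the 64 libraries, as CPM + 0.1 on a log axis, by tissue, age and genotype. Points are libraries, open triangles are libraries with Xist, and bars are group medians. The young WT muscle libraries with Xist stand at the top for Fos (208 and 390.2 CPM), Egr1 and Btg2, and Ier2 is higher in liver than in muscle.

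Tissue differences in young WT mice were tested in a model of all 12 groups, over the 8 members measured in each tissue. Against adipose tissue, 6 of 8 members were higher in muscle: Atf3 (log2 difference 3.801 ± 0.82, SE), Nr4a1 (3.59 ± 0.61), Btg2 (2.32 ± 0.56), Jun (2.20 ± 0.28), Fos (2.12 ± 0.67) and Junb (1.25 ± 0.38). Their limma adjusted p-values ran from 4.77e-10 for Jun to 0.00391 for Fos. Of all 11330 genes, 74.2% were called in that comparison, so a call by itself sets no member apart. The members' median was 2.16, beside -0.10 over all genes. Without the libraries with Xist, Fos was no longer called (1.13, adjusted p = 0.177). Against liver, 5 members were higher in muscle, with Atf3 the most (5.35 ± 0.82) and Nr4a1 next (4.57 ± 0.61), and Ier2 was lower (-1.002 ± 0.24, adjusted p = 0.000204), where 74.5% of genes were called. Between liver and adipose tissue, Ier2 was higher (1.18 ± 0.24) and Fos lower (-1.69 ± 0.67) in liver, and 71.5% of genes were called. Per the labels, adipose tissue and muscle were extracted with another kit than liver, which cannot be told apart from the tissue. In bulk tissue, fewer cells of a type and less RNA per cell cannot be told apart either.

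The members varied widely between libraries of the same group, most of all in muscle. The pooled within-group SD of log2(CPM + 1) had a median of 1.047 over the 10 members in muscle, against 0.264 over all 13237 genes tested there. Atf3 had the 7th widest spread of these genes (SD 2.34), Egr1 the 18th (1.95) and Fos the 29th (1.77). Of the 10 members, 9 were above the 90th percentile of all genes in muscle, and Egr2 (0.427) was the exception. In liver, 7 of 8 members were above it, led by Nr4a1 (1.32, place 94 of 12924), and Ier2 (0.349) was not. In adipose tissue 4 of 10 were (Nr4a1, Egr2, Atf3 and Fos), and Jun (0.347) lay near the median of all genes (0.359).

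In old WT muscle, the 5 libraries had 955, 6.06, 76.9, 3.55 and 6.70 CPM of Atf3, a 269-fold range. The 955 CPM belongs to W18S41, whose Fos (125 CPM), Jun (422 CPM) and Btg2 (219 CPM) were also the highest of that group. In old KO muscle, K18S48 was highest for Fos (72.1 CPM, the others 5.13 to 9.02), Egr1 (41.5 CPM, the others 5.33 to 12.1) and Atf3 (291 CPM, the others 10.3 to 76.1). That library also had a neutrophil marker sum of 660 CPM, the highest of the muscle libraries, whose median was 3.64, and its part in these levels was not tested. In liver, W5L5005 was the lowest library of young WT for each of the 10 members, with 2 reads of Fos and 34 of Egr1.

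**Figure D2:**
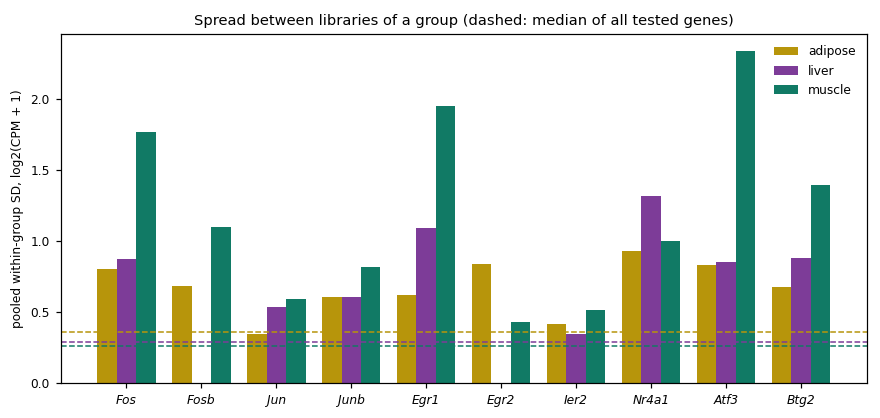
Pooled within-group SD of log2(CPM + 1) of each tested member in 3 tissues (bars), with the median over all tested genes of each tissue (dashed lines). Atf3, Egr1 and Fos in muscle reach 2.34, 1.95 and 1.77, above the dashed line at 0.264.

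Within groups, many members were high in the same libraries, most clearly in muscle and liver. Co-variation was measured on log2(CPM + 1) after each group's mean was taken off, so that age and genotype do not enter, with p-values from permutations within groups and adjustment over 30 relations with Fos (9 members and Myc in 3 tissues). In muscle (20 libraries), Fos followed Atf3 (Pearson r = 0.902, Spearman rho = 0.898, permutation p = 3e-05 and 4e-05, adjusted 0.00045 and 0.00105). It also followed Egr1 (r = 0.844), Btg2 (0.82), Jun (0.812), Fosb (0.756), Junb (0.706) and Ier2 (0.693), each with an adjusted permutation p of 0.00897 or less for r and 0.028 or less for rho. Egr2 (r = 0.473) and Nr4a1 (r = 0.306) had adjusted permutation p-values of 0.1 and 0.246. The relation with Atf3 had r = 0.88 without the 2 libraries farthest from the median of Fos, and r = 0.898 over the 16 libraries without Xist. For Ier2, r was 0.609 and 0.492 in the same way.

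Myc followed Fos in muscle (r = 0.842, rho = 0.823, adjusted permutation p = 0.0003 and 0.00105; r = 0.768 without the libraries with Xist), over KO and WT libraries together. In adipose tissue its r was 0.574 (rho = 0.502, adjusted permutation p = 0.0209 and 0.0577), and in liver 0.194 (rho = 0.164, adjusted permutation p = 0.447 and 0.473).

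In liver (22 libraries), Jun followed Fos most closely (r = 0.775, rho = 0.698, adjusted permutation p = 0.000814 and 0.00502), then Btg2 (r = 0.684) and Ier2 (r = 0.662). In all, 8 of 9 members passed in liver for r, and Egr2 (0.344) did not. For rho 5 of 9 passed, without Junb, Egr1, Nr4a1 and Egr2. Without the 2 farthest libraries, W5L5005 and K5L4284, the r of Jun was 0.668 and that of Egr1 fell from 0.592 to 0.402. In adipose tissue (22 libraries), Atf3 (r = 0.731, rho = 0.728, adjusted permutation p = 0.000825 and 0.0023), Junb (r = 0.6) and Fosb (r = 0.507) passed for r, and Fosb did not for rho (adjusted permutation p = 0.0796). Over all pairs of members the median r was 0.456 for adipose libraries, where 42 of 45 pairs were positive. It was 0.59 for liver libraries (28 of 28) and 0.609 for muscle libraries (43 of 45). The highest pair in adipose tissue was Junb with Btg2 (r = 0.881). What else these libraries vary in, such as depth and cell content, enters each of these values. How many of all genes follow Fos in this way was not counted, nor how many other pairs are positive. The counts of members and pairs therefore set no member apart.

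**Figure D3:**
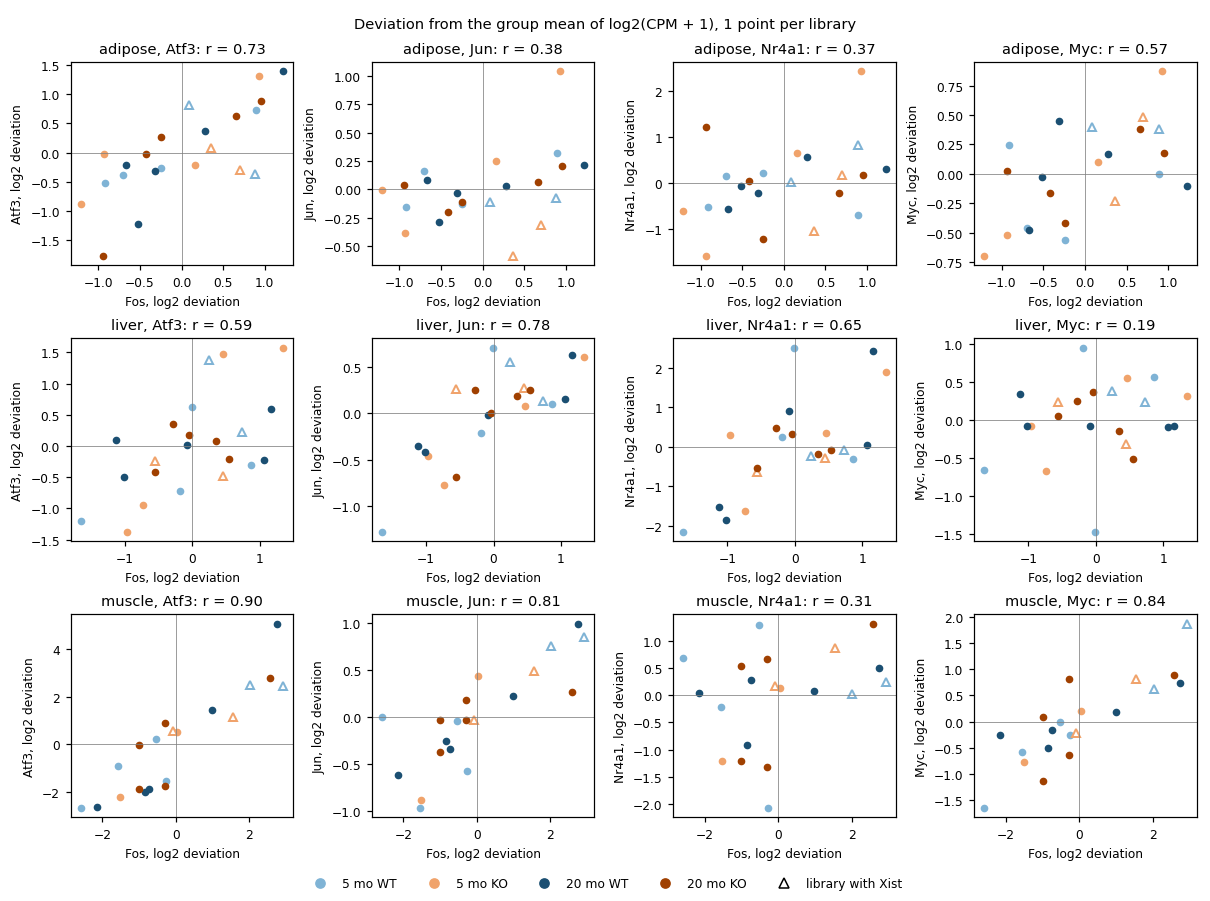
Deviation of each library from its group mean of log2(CPM + 1), Fos on the x axis against Atf3, Jun, Nr4a1 and Myc on the y axis, in adipose tissue, liver and muscle. Points are libraries and open triangles are libraries with Xist. In muscle, Atf3 (r = 0.90) and Myc (0.84) rise with Fos, and Nr4a1 (0.31) scatters.

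The non-members whose deviations most resembled the mean of the members differed by tissue. In muscle these were Fosl1, an AP-1 subunit of the Fos family (r = 0.964 over 20 libraries), Pvr, the poliovirus receptor homologue (0.964), Dnajb4, a heat shock co-chaperone (0.962), Otud1, a deubiquitinase (0.958), and Gm30963 (0.956). Otud1 ran from 40.8 to 1782 CPM among the 6 young WT muscle libraries. In adipose tissue they were Tuba1c, an alpha tubulin (0.882 over 22 libraries), Zfp36, an immediate early gene whose protein destabilises messages (0.861), Sdcbp (0.855), Zswim4 (0.854) and Atp6ap2 (0.841). In liver they were Cttnbp2nl (0.797), Rhob, a small GTPase and immediate early gene (0.793), Pik3ip1 (0.787), Dennd2a (0.784) and Il10ra (0.782). These r values are the highest over all tested non-members and are given as a description.

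In WT muscle 4 of 10 members fell between 5 and 20 months (Ier2, Junb, Egr2 and Btg2), where 18.6% of all genes were called and 7.68% were called lower. All 10 members had a negative log2 fold change, with a median of -1.28 beside 0.03 over all genes. The 10 signs were the same under each other scaling, filter and tool run, while Jun turned to 0.18 without the libraries with Xist and to 0.08 with Xist status as a covariate.

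Ier2 (chr8:84661331-84662852, build GRCm38.p6) had a lowest, median and highest level of 10.55, 14.9 and 48.2 CPM in the 6 young WT muscle libraries. The 5 old ones had 9.13, 7.88, 6.38, 7.05 and 9.998 CPM. The groups did not overlap, with each old library below each young one, and the log2 fold change was -1.17 ± 0.29 (SE, limma adjusted p = 0.0115). Ier2 was the 1 member of 10 whose WT groups did not overlap in muscle, as 1.95% of all genes did with the old group lower. It was called whichever library was left out (20 of 20 fits).

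Junb (chr8:84976909-84978748) had a lowest, median and highest level of 19.9, 50.8 and 284 CPM in young WT muscle, and 33.5, 19.9, 22.6, 21.8 and 21.1 CPM in the old libraries. Its log2 fold change was -1.39 ± 0.45 (adjusted p = 0.0367), and W5S5277, at 19.89 CPM, was below each old library (19.94 CPM or more). Btg2 (chr1:134074865-134079155) ran from 35.97 over a median of 280.0 to 953 CPM in the young group, and had 219, 23.9, 50.5, 22.6 and 31.2 CPM in the old group. Its log2 fold change was -2.36 ± 0.76 (adjusted p = 0.0373), and W18S41 (219 CPM) was above W5S5277 and W5S5299. Egr2 (chr10:67534469-67542188) was low throughout, at 1.04, 2.86 and 5.35 CPM (lowest, median, highest) in young and 2.165, 0.849, 0.987, 0.95 and 1.27 CPM in old libraries. Its log2 fold change was -0.75 ± 0.25 (adjusted p = 0.04). Atf3 (-2.78 ± 1.28, adjusted p = 0.126), Egr1 (-1.76 ± 1.07, 0.248) and Fos (-1.46 ± 0.97, 0.292) had wide errors and were not called by limma. DESeq2 called Egr1 (-3.34, adjusted p = 0.00963) and Fosb (-3.01, adjusted p = 0.00825) as lower as well, and edgeR called Fosb (adjusted p = 0.0344).

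W5S5041 and W5S5042 were the 2 young WT muscle libraries with Xist. In both, 8 of 10 members were higher than in each of the other 4 young WT libraries. Fos had 208 and 390.2 CPM there, against 7.60 to 41.9 CPM in the others. Egr1 had 416 and 881 CPM against 10.7 to 25.7 CPM. Atf3 had 1108 and 1064 CPM against 29 to 224 CPM, and Btg2 706 and 953 CPM against 35.97 to 305 CPM. Egr2 and Nr4a1 were the 2 members that did not separate. In young KO muscle, Fosb, Egr2, Nr4a1 and Atf3 were higher in both libraries with Xist than in both others. In the 4 adipose and liver young groups, 0 to 2 members separated this way. How many of all genes separate in these ways was not counted, so these counts set no member apart. Groups of so few libraries can also separate by chance.

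Without the libraries with Xist, Ier2 was the 1 member called in WT muscle (log2 fold change -0.63 ± 0.16, adjusted p = 0.0333). There 937 of 13237 genes were called, 443 of them lower. Junb was then at -0.61 (adjusted p = 0.101), Egr2 at -0.53 (0.179), Btg2 at -1.46 (0.235), and Egr1 at -0.03 (0.985). With Xist status as a covariate, Ier2 was again the 1 member called (-0.86, adjusted p = 0.0215). Leaving out single libraries gave 1 to 5 calls. It was 1 without any of W5S5007, W5S5041, W5S5042, W18S42, W18S45, W18S66 and W18S72, and 5 without W18S41, when Atf3 was called as well (-4.05 ± 1.11, adjusted p = 0.0157).

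In KO muscle no member was called by limma between the ages, where 5.57% of all genes were, and 6 of 10 had an unadjusted p under 0.05. Of all 13237 genes, 3386 had such an unadjusted p. All 10 log2 fold changes were negative, with a median of -1.24 beside -0.02 over all genes. Ier2 was at 19.2, 13.5, 14.4 and 18.7 CPM in the 4 young and 9.25, 7.74, 7.11, 6.38 and 8.86 CPM in the 5 old KO libraries. These groups did not overlap (-0.97 ± 0.32, adjusted p = 0.074). Without the libraries with Xist, Ier2 was called (-0.96 ± 0.20, adjusted p = 0.0276), with 2 young libraries left and 275 of 13237 genes called. Fosb had 2.27, 0.730, 2.73 and 9.23 CPM in young and 0.683, 0.127, 0.597, 0.218 and 0.215 CPM in old KO libraries, also with no overlap (-1.51 ± 0.67, adjusted p = 0.167). Btg2 had 406, 221, 301 and 479 CPM in young and 185, 70.0, 209, 23.8 and 35.8 CPM in old KO libraries, with no overlap (-2.16 ± 0.84, adjusted p = 0.122). Among all genes, 6.87% had KO groups in muscle that did not overlap with the old group lower, beside these 3 of 10 members. DESeq2 called Fosb and Ier2, and edgeR none. The interaction of age and genotype was not called for any member in muscle (lowest adjusted p 0.999), so no difference between the genotypes' change with age was detected.

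Other genes of the response moved in the same direction in WT muscle. Of all genes tested there, 18.6% were called and 7.68% were called lower. Of 41 tested immediate early genes outside the 10, 20 fell and none rose, with a median of -0.93. Those that fell most were Cebpd, a C/EBP transcription factor (449 ± 283 CPM, SD, n = 6, at 5 months and 56.2 ± 38.5, n = 5, at 20 months, log2 fold change -2.82), and Sik1, a kinase induced by cyclic AMP (125 ± 75.7 and 17.3 ± 11.6 CPM, -2.63). Of 9 other AP-1 subunits 4 fell and none rose, led by Maff (-2.44) and Fosl2 (-1.53). Without the libraries with Xist the counts were 4 of 41 and 0 of 9, where 937 of 13237 genes were called. In KO muscle, where 5.57% of all genes were called, 1 of 41 fell, Ccn2 (-1.65), as did 1 of 9, Jund (-1.15). Of these 41, 0 were called without the libraries with Xist.

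The regulators upstream were mostly not called. Of 23 tested SRF, MAPK and CREB pathway genes, 4 rose and 1 fell in WT muscle. Of all genes 18.6% were called there, near the share of this list. Rps6ka5, the kinase MSK1 (0.96 ± 0.22), and Creb1 (0.45 ± 0.12) led the rises, and the SRF coactivator Mrtfb fell (-0.51 ± 0.15). In KO muscle 3 rose and none fell, beside 5.57% of all genes called. Map2k4, a MAPK kinase (0.45), was among the 3. None of 12 heat shock genes was called in either genotype, with medians of -0.59 and -0.99. Some summed markers of other cells also had lower ranges in old WT muscle, each with overlap between the ages. The 6 macrophage markers summed to 56.7 to 211 CPM at 5 and 25.5 to 98.6 CPM at 20 months, the 4 smooth muscle markers to 141 to 234 and 62.96 to 157 CPM, and the 5 fibroblast markers to 528 to 1316 and 439 to 735 CPM. The erythroid markers were lower too (275.3 to 968.4 and 160.6 to 669.9 CPM). Others did not clearly follow: the endothelial markers summed to 334.7 to 541.7 and 333.1 to 500.6 CPM. The adipocyte markers summed to 367.3 to 568.8 and 307.8 to 551.6 CPM, and the neutrophil markers reached 30.4 and 110.8 CPM. In KO muscle the smooth muscle markers summed to 150.9 to 249.3 CPM at 5 and 95.19 to 123.3 CPM at 20 months, with no overlap. The macrophage markers there summed to 93.19 to 161.1 and 46.25 to 98.05 CPM, and the fibroblast markers to 710.2 to 1097 and 447.5 to 925.2 CPM. The part of these cells in the members' change was not tested in either genotype.

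**Figure D4:**
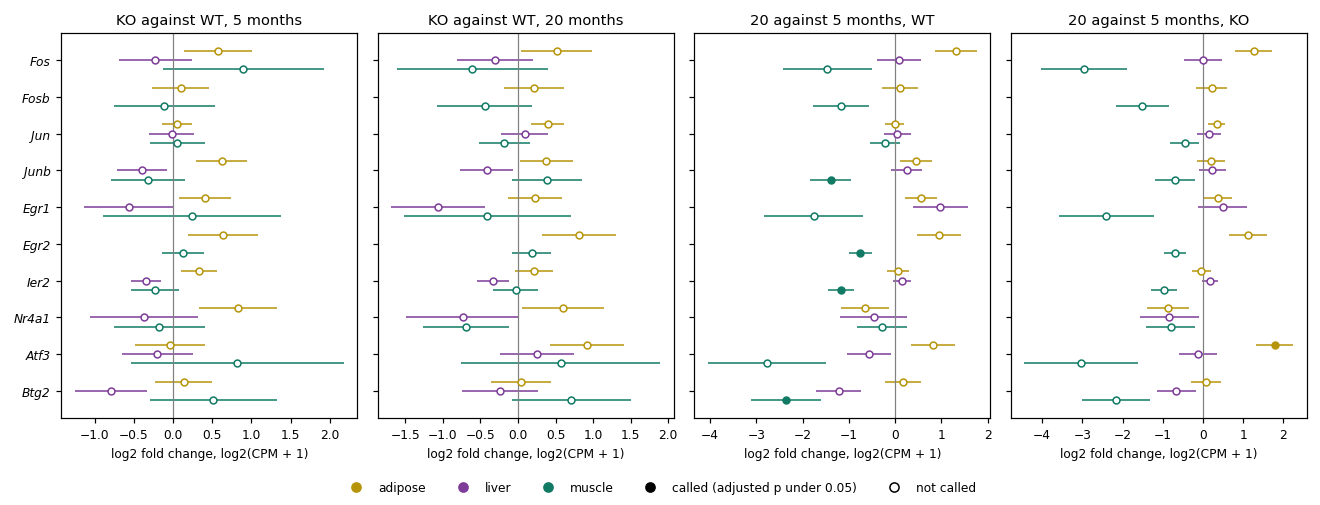
Log2 fold change on the log2(CPM + 1) scale (points, with SE bars) of each member in adipose tissue, liver and muscle, comparing KO with WT mice (2 panels) and 20 with 5 months (2 panels). Filled points were called at an adjusted p under 0.05: Ier2, Junb, Egr2 and Btg2 in ageing WT muscle and Atf3 in ageing KO adipose tissue.

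In adipose tissue 1 of 10 members was called between the ages in KO mice, Atf3, which rose. It had 10.75, 32.8, 10.1, 13.4, 6.40 and 12.4 CPM in the 6 young and 85.4, 44.9, 12.8, 55.3 and 71.2 CPM in the 5 old KO libraries. The groups overlapped, since K5F4285, K5F5118 and K18F28 lay inside the other group's range, and 4 of 5 old libraries were above each young one. The log2 fold change was 1.78 ± 0.47 (limma adjusted p = 0.0175), where 14.2% of genes were called and 10.5% were called higher, so that 1 of 10 members is no more than the background. The split of all genes called was 1497 higher and 536 lower by limma, 997 and 1265 by edgeR, and 1314 and 1983 by DESeq2. Atf3 (chr1:191170296-191183333) was not called without K18F26 or without K18F30, when no member was called. It was also not called without the 4 young libraries with epididymis transcripts (1.41 ± 0.58, adjusted p = 0.093), of which 3 are KO. Egr2 was then called in its place (1.67, adjusted p = 0.0352). Nr4a1 had a log2 fold change of -0.88 ± 0.52 in KO mice (limma adjusted p = 0.248), and DESeq2 called it as lower (-1.46, adjusted p = 0.0376).

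Fos had a median of 10.3 CPM (5.29 to 20.99) in young WT and 19.6, 34.95, 68.0, 17.6 and 22.8 CPM in old WT adipose tissue. In KO mice it ran from 6.63 over a median of 20.2 to 32.6 CPM at 5 months and had 80.6, 30.5, 20.99, 34.6 and 65.7 CPM at 20 months. The log2 fold changes were 1.32 ± 0.45 in WT (adjusted p = 0.0614) and 1.26 ± 0.45 in KO mice (0.0639), and neither was called. With Xist status as a covariate both were called (1.57 and 1.51, adjusted p = 0.0433 and 0.0328), and DESeq2 called both (adjusted p = 0.0229 and 0.0449). With the 4 libraries with epididymis transcripts left out, Fos was called in WT (1.13 ± 0.41, adjusted p = 0.0497), and in KO mice it was at 0.60 ± 0.47 (adjusted p = 0.367). In that setting 5 of 10 members had a positive value in KO mice, against 8 of 10 with all libraries. With the libraries with Xist left out, Fos was called in KO (1.52, adjusted p = 0.041) and not in WT mice (1.56, adjusted p = 0.079). In WT mice limma called no member in adipose tissue, where 10.8% of genes were called, and 1 (Fos) had an unadjusted p under 0.05. Of all 14286 genes, 4347 had such an unadjusted p. The median over the 10 members was 0.31 in WT and 0.28 in KO mice, beside 0.01 and 0.06 over all genes. In WT adipose tissue the adipocyte markers summed to 16150 to 33540 CPM at 5 and 9757 to 15680 CPM at 20 months, and the T cell markers to 4.49 to 12.35 and 13.85 to 50.01 CPM, both with no overlap. In KO mice the adipocyte markers summed to 9136 to 33510 and 9552 to 18330 CPM, with ranges that overlapped. The T cell markers of KO mice reached 20.2 CPM at 5 months and began at 15.9 CPM at 20 months, and the macrophage markers summed to 507 to 2226 and 929 to 1799 CPM, so that both overlapped too. The part of these cells in the values of the members was not tested.

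Between the ages in adipose tissue, 10.8% of all genes were called in WT and 14.2% in KO mice. Of the 42 other immediate early genes tested in adipose tissue, 2 rose and 1 fell in WT, and 5 rose and 1 fell in KO mice. Klf6 (0.72) and Phlda1 (0.56) led in WT, and Plk2, a polo-like kinase (1.57, from 14.1 ± 4.52 CPM, n = 6, to 44.8 ± 16.7 CPM, n = 5), and Ccn1 (1.34) in KO mice. The clock gene Per1 fell in both (-1.25 in WT and -1.20 in KO). None of 10 other AP-1 subunits was called in either genotype. Of 23 upstream regulators, 3 rose and none fell in each genotype, with Rps6ka5 at 0.97 in WT and 0.96 in KO mice. Of 12 heat shock genes, 1 fell in KO mice, Dnajb1 (-0.67).

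In liver no member was called between the ages in either genotype by limma, edgeR or DESeq2, where 7.19% of genes were called in WT and 2.99% in KO mice. Btg2 had the lowest adjusted p in WT liver (-1.21 ± 0.49, adjusted p = 0.121) and was the only member with an unadjusted p under 0.05 there. In KO liver there was none. Of all 12924 genes, 3301 had such an unadjusted p in WT and 2484 in KO liver. Btg2 had 8.08, 44.7 and 51.0 CPM (lowest, median, highest) in young WT liver, and 11.1, 16.7, 23.9, 6.16 and 20.3 CPM in old WT liver. Without W5L5005, the lowest of the young group, Btg2 was called in WT liver (-1.61 ± 0.43, adjusted p = 0.0297). Of 36 other immediate early genes in WT liver, 1 rose and 2 fell: Nfkbiz rose (0.80), and Per1 (-1.73) and Cebpd (-1.36) fell. In KO liver Nfkbiz was the 1 called (0.82). None of 8 other AP-1 subunits was called. Of 23 upstream regulators, Rps6ka1 (1.01) and Mapk9 (0.37) rose in WT liver and none was called in KO liver. Of 12 heat shock genes, Hspe1 fell in WT liver (-0.82).

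The change with age in WT mice was then compared between tissues, in the model of all 12 groups. Against adipose tissue, the change in muscle was lower for 5 of 8 members: Atf3 (difference of log2 fold changes -3.60 ± 1.21, adjusted p = 0.0335), Fos (-2.78 ± 0.99, 0.045), Btg2 (-2.53 ± 0.83, 0.0299), Junb (-1.84 ± 0.56, 0.0188) and Ier2 (-1.23 ± 0.36, 0.0144). Of all genes 16.4% were called in this comparison, and 7.86% as lower in muscle. Against liver, Ier2 alone was called (-1.32 ± 0.36, adjusted p = 0.0289), where 3.1% of genes were called and 1.42% as lower. Between liver and adipose tissue no member was called, where 4.01% of genes were, and none had an unadjusted p under 0.05. Of all 11330 genes, 2222 had such an unadjusted p there. Without the libraries with Xist, none of the 3 comparisons called a member. The differences for Junb (-1.39, adjusted p = 0.0626) and Ier2 (-0.89, 0.0603) were then closest to the threshold.

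Between KO and WT mice no member was called in any tissue at either age. Myc itself was called only at 5 months, in adipose tissue and liver. At 5 months the share of all genes called was 0.105% (adipose), 0.0696% (liver) and 0.0% (muscle), and at 20 months it was 0.0%, 0.0232% and 0.0302%. No member had an unadjusted limma p under 0.05, and edgeR and DESeq2 called none. Of all genes, 1692 of 14286 (adipose), 897 of 12924 (liver) and 543 of 13237 (muscle) had such an unadjusted p at 5 months. At 20 months 321, 750 and 1821 did.

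In adipose tissue 9 of 10 members had a positive KO against WT value at 5 months (median 0.37, range -0.04 to 0.83) and 10 of 10 at 20 months (median 0.39, beside 0.01 over all genes). The lowest adjusted p was 0.454, for Junb at 5 months (0.62 ± 0.33). Junb had a median of 23.7 CPM (15.2 to 43.7) in young WT and 34.7 CPM (17.3 to 91.5) in young KO adipose tissue, with ranges that overlapped. Nr4a1 in young KO adipose tissue ranged from 8.17 to 146 CPM, and its highest library, K5F4285, was also the highest of that group for Fos, Fosb, Jun, Junb, Egr1, Ier2, Atf3 and Btg2.

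In liver all 8 members had a negative value at 5 months (median -0.36) and 6 of 8 at 20 months (median -0.32). At 5 months 5 of the 8 were positive without the libraries with Xist. Ier2 had the lowest adjusted p at 5 months (-0.35 ± 0.19, 0.755) and Egr1 at 20 months (-1.06 ± 0.63, 0.885). Egr1 in old liver had 71.1, 70.9, 65.3, 17.3 and 66.2 CPM in WT and 20.8, 29.02, 29.06, 30.6 and 16.1 CPM in KO mice. In these, 4 of 5 WT libraries were above each KO library and the remaining one, W18L04, was not.

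In muscle the medians were 0.09 at 5 and -0.11 at 20 months, and the lowest adjusted p was 0.9999 at 5 months and 0.575 at 20 months. The errors there were wide, so that changes of these sizes could not be resolved: Atf3 was at 0.82 ± 1.36 (SE) and Fos at 0.90 ± 1.03 at 5 months, while Ier2 was at -0.23 ± 0.31. The interaction of age and genotype was not called for any member in any tissue, where 0.0% of genes were called in each, and no member had an unadjusted p under 0.05. Of all genes, 407 (adipose), 507 (liver) and 438 (muscle) had such an unadjusted p.

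Young mice carry the same number in several tissues, so it could be asked whether an animal that was high in one tissue was high in another. Over 26 relations (8 or 10 members in 3 pairs of tissues) none passed after adjustment (lowest adjusted exact permutation p 0.135 for r and 0.181 for rho). The median r was 0.348 between adipose tissue and liver (11 animals), 0.322 between liver and muscle (9 animals) and -0.047 between adipose tissue and muscle (8 animals). The lowest unadjusted value was for Nr4a1 between adipose tissue and muscle, which was negative (r = -0.942, rho = -0.905, exact permutation p = 0.00521 and 0.00694, and r = -0.82 without the 2 farthest animals).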

How the data were processed

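RNA from 64 mouse tissue libraries was sequenced on Illumina instruments after oligo-dT selection and a strand-marking library kit, per the labels' protocols. The authors deposited 1 table of 36333 gene entries (36332 distinct IDs), called CPM per the file headers. Column sums ran from 0.529 to 1.64 M (mega), so the deposited values are treated as a signal scaled per library by the authors. Builds GRCm38.p6 and mm10 are named in the submitters' processing notes, and the aligner, annotation and use of strand in counting are not given in the sources used here. 100% of values of up to 1000 reads came out as whole reads (within 0.1 read). IDs were matched to RefSeq symbols (35336 matched), and promoter windows are RefSeq's for GRCm38.p6. Codes of the older mice contain 18 while their labels give 20 months, which is used here.

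Members and gene lists were chosen with earlier results of these data known. In each tissue, a gene was tested if the libraries above 1 CPM were no fewer than those of the smallest group (14286, 12924 and 13237 genes, in the order adipose tissue, liver, muscle). The test was limma 3.58.1 in R 4.3.3 on log2(CPM + 1), with 4 group means, a variance trend and Benjamini-Hochberg adjustment over all genes tested. Called means an adjusted p under 0.05. Fold changes on this scale understate low genes. A model of all 12 groups tested 11330 genes. Alternatives were a pseudocount of 0.1, no filter, TMM factors, edgeR 4.0.16 and DESeq2 1.42.0 on the recovered reads, Xist as covariate, leaving out libraries with Xist (over 5 CPM) or epididymis transcripts (markers summing to over 10 CPM), leaving out each library, and the animal number as a replicate block. The same alternatives for the further gene lists, and co-variation without the libraries with Xist, were added after seeing the data. Named were every member, Myc, per list the 2 called genes with the largest rise and fall, and per tissue the 5 genes most like the members' mean; 1 gene that this rule names is not reported here. Permutations numbered 100000, or were exact across tissues. Over 141 pairs of libraries of a group, chi-square per degree of freedom was at least 14.5, so each library counted as 1 replicate. The fits were tested on simulated data.

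Same-numbered young libraries deviated together in 20 of 28 pairs (r above 0.1, median 0.156), and the numbers in the codes are taken to name animals. Pairs with different numbers were not measured, so this count does not test whether the numbers name animals.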

Additional observations from a re-analysis of the deposited data

Results flagged for a closer look

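In 5 of 120 sets of a member in a group, 1 library lay far from the rest (Dixon's ratio); chance flags about 1 in 20 groups, and no explanation was tested. Fos was at 72.09 CPM in K18S48 (old KO muscle), where the group's median was 9.02 CPM. Jun was at 28.08 CPM in K18L06 (old KO liver), against a median of 52.2 CPM. Junb was at 33.48 CPM in W18S41 (old WT muscle), against 21.8 CPM. Egr1 was at 17.3 CPM in W18L04 (old WT liver), against 66.2 CPM. Btg2 was at 8.077 CPM in W5L5005 (young WT liver), against 44.7 CPM.

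The change with age in WT mice differed between muscle and adipose tissue for Fos (difference of log2 fold changes -2.781, limma adjusted p = 0.045), Junb (-1.838, 0.0188), Ier2 (-1.233, 0.0144), Atf3 (-3.6, 0.0335) and Btg2 (-2.529, 0.0299). It differed between muscle and liver for Ier2 (-1.316, 0.0289). None of these 6 differences was called without the libraries with Xist, which are all young.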

How the results depend on the processing

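Counts of called members in KO against WT and in the interaction were 0 under each alternative run. In ageing WT muscle the count of 4 became 1 with no filter, with Xist as a covariate or without the libraries with Xist, was 5 with edgeR (with Fosb added) and 6 with DESeq2 (with Fosb and Egr1 added), and ranged from 1 to 5 with single libraries left out. Of the 4 genes, Ier2 was called in 20 of 20 such fits, Junb in 13, Egr2 in 12 and Btg2 in 12. Among other immediate early genes the 20 falls became 13 with no filter and 4 without the libraries with Xist (11 to 25 with single libraries left out, 13 without W18S42 or W5S5042 and 11 without W18S66). Among other AP-1 subunits the 4 falls became 2 with no filter, 0 without those libraries, and 1 with the covariate (1 to 7 with single libraries left out, 1 without W18S42 or W5S5042, 2 without W18S66, W18S72, W5S5007 or W5S5041, 7 without W5S5277). In ageing KO muscle the count of 0 became 2 with DESeq2 and 1 without the libraries with Xist, and ranged from 0 to 1, the 1 being without W5S5042. In ageing KO adipose tissue the 1 became 3 with DESeq2 and 2 with the covariate or without the libraries with Xist (0 to 3 with single libraries left out, 3 without K5F4285 or K18F28, and 2 without K5F5116). The 1 other immediate early gene of ageing KO muscle ranged from 0 to 10 with single libraries left out, and the 6 of ageing KO adipose tissue from 2 to 9. In ageing WT adipose tissue the 0 became 1 with DESeq2, with the covariate or without the libraries with epididymis transcripts (0 to 1, the 1 being without K5F5218 or W5F5006). Ageing WT liver ranged from 0 to 1, the 1 being Btg2 without W5L5005. The 5 and 1 differences between tissues became 0 without the libraries with Xist. The causes were not tested, apart from the fewer libraries or more genes that these settings hold by construction.

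The replicate block on the animal number (consensus correlation 0.056) left 6, 6 and 2 called members between tissues and 5, 1 and 0 for the differences in ageing, and changed no call. Of all genes called in ageing WT muscle, 1446 were higher and 1017 lower, and edgeR gave 1207 and 1259. In ageing WT adipose tissue the split was 1059 and 480, and 886 and 820 with edgeR. Fosb and Egr2 were under the minimum level in liver and were not tested there, and the spread between libraries limits Atf3, Egr1 and Fos in muscle.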
